A study of Arabidopsis thaliana with 46 samples.

Results

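The auxin receptors and their repressor substrates were followed at the transcript level in root cells and whole roots of Arabidopsis thaliana. The set was chosen by gene identity and holds 35 genes, the 29 Aux/IAA genes, the receptor TIR1 and its 5 relatives AFB1 to AFB5. All 35 were found by gene ID in the 33016 genes of the N-dose and root tables and in the 33341 genes of the tables of the cycloheximide (CHX) experiment. Aux/IAA proteins sit on auxin response factors (ARFs) and bring the TOPLESS (TPL) corepressor to the genes these bind. TIR1 and the AFBs are F-box subunits of an SCF ubiquitin ligase, and auxin holds a receptor and the degron of an Aux/IAA protein together, so that the repressor is degraded and the ARF is set free. Many Aux/IAA genes are themselves activated by ARFs, so their transcripts are widely used as a readout of auxin response, in roots above all for meristem size, gravitropism and lateral root formation.

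The 46 libraries, all from the ecotype Col-0 and labelled as 10 days old, fall into 14 groups of 3 experiments. In the N-dose experiment, root protoplasts carried the empty vector (EV, with the glucocorticoid receptor domain alone) or a vector in which that domain was fused to TGA4, a bZIP factor of the TGACG-binding family. These cells received 0 mM nitrogen (0N, 20 mM KCl in its place), 5 mM nitrogen (5N, as 5 mM KNO3) or 60 mM nitrogen (60N, as 20 mM KNO3 with 20 mM NH4NO3), and all 6 groups (3 wells each, named by vector and dose as EV_0N to TGA4_60N) also received 35 µM CHX, which blocks translation, and 10 µM dexamethasone (DEX), which lets the fusion enter the nucleus. Per the methods, the 5N cells received KCl as well. In the CHX experiment, the same vectors were compared without CHX (EV_mChx, TGA4_mChx) and with 35 µM CHX (EV_pChx, TGA4_pChx, n = 3 each), all with 10 µM DEX. Its nitrogen dose stands only in the methods, as that of 60N. In the root and protoplast experiment, whole roots (Root_0N, Root_60N) and protoplasts (Protoplast_0N, Protoplast_60N, n = 4 each) were compared at 0N and 60N without CHX or DEX, and per the methods these protoplasts were EV-transfected cells that had been sorted, and the roots came from slightly older plants grown in liquid medium. TGA4 is expressed from the vector far above its own level, and per the methods one pool of transfected cells per vector was divided into the wells used as replicates, so that p-values measure the spread between wells and a difference between vectors cannot be told apart from a difference between transfections.

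Libraries held 7.84 M to 16.2 M counts in the N-dose experiment, 2.40 M to 8.18 M in the CHX experiment and 9.68 M to 17.5 M in roots and protoplasts, and 3 counts corresponded to between 0.125 and 1.21 counts per megacount (CPM) of the scaled total. The TGA4 transcript stood at 28.9 to 57.4 CPM in the EV libraries of the 2 vector experiments and at 5161 to 25994 CPM in the TGA4 libraries, as the labels say. Of 15 markers of root cell types and of shoot, fixed as a list, the cortex marker CO2 and the shoot marker RBCS3B were at 0 in every vector library, and the summed shoot markers reached at most 1.13 CPM in a group mean of protoplasts. The endodermis markers SCR and CASP1, the stele markers WOL and PHO1 and the phloem marker APL were detected throughout. The stele marker SHR was low in the vector groups, with means from 0.183 CPM in TGA4_5N to 1.59 CPM in EV_mChx. The gene tables of the CHX experiment differ from those of the others, so levels are set side by side across experiments and not tested.

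The 29 repressors were separated by the degron, the short stretch through which the receptors hold them. The core Gly-Trp-Pro-Pro was searched in the longest annotated coding sequence of each gene as in-frame codons for these residues. It was found in 23 of 29 Aux/IAA genes and not in IAA20, IAA30, IAA31, IAA32, IAA33 and IAA34, which are known as the members without a canonical degron. The windows below, 30 bases with the 12 core bases in capitals, are those of the genes that the vector and CHX comparisons turn on, with the pair that is identical.
IAA1: caaatcgttGGATGGCCTCCAgtgagatct
IAA2: caaatcgttGGTTGGCCACCAgtgagatct
IAA9: caaattgtcGGTTGGCCTCCAgtgagatcc
IAA11: caagttgtgGGATGGCCACCAataaggact
IAA18: ccagtggtgGGATGGCCTCCGgttcgatcc
IAA19: caggtggtgGGGTGGCCACCGgtttgttct
IAA3: cagattgttGGATGGCCACCAgttagatct
IAA4: cagattgttGGATGGCCACCAgttagatct

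IAA3 and IAA4, on chromosomes 1 and 5, had the same 30 bases, and the 23 genes held 22 distinct windows. The first core codon was GGA in 14 genes, GGT in 7, GGC in IAA15 alone and GGG in IAA19 alone. The 29 repressors had coding lengths of 390 to 1017 bases and the 6 receptors of 1728 to 1872 bases. On the chromosomes, 3 pairs of Aux/IAA genes are near neighbours, IAA3 and IAA17 with 6.39 kb between them, IAA1 and IAA14 with 10.7 kb, and IAA2 and IAA7 with 12.5 kb.

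Windows from 250 bases before to 50 after each annotated gene start were searched on both strands. The letters were TGACG (the core bound by TGA factors), its longer form with a further T, which contains the core, and 2 auxin response elements, TGTCTC (the classic form) and TGTCGG (the G form). The classic form was in 13 of 35 member windows (37.1%, against 14.2% of 27443 windows of all genes) and the G form in 6 (17.1%, against 5.12%). The TGA core was in 3 member windows (IAA1, IAA8 and TIR1; 23.1% of all windows hold it), and its longer form in that of IAA1 alone (9.19% of all windows). A match is a description of letters and not a site. The 250 bases before the starts of IAA1 (chr4:8360746-8360995, plus strand) and of IAA19 (chr3:5263751-5264000, plus strand) are shown because IAA1 carries every kind of match and IAA19 carries the classic auxin element 3 times, with the matches on either strand in capitals (in IAA1 the G form and the longer TGA form adjoin).
IAA1: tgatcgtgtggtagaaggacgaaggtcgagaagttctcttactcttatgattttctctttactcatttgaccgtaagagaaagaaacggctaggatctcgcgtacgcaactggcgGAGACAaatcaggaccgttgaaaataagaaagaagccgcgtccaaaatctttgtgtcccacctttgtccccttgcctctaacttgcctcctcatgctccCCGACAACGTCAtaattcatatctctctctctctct
IAA19: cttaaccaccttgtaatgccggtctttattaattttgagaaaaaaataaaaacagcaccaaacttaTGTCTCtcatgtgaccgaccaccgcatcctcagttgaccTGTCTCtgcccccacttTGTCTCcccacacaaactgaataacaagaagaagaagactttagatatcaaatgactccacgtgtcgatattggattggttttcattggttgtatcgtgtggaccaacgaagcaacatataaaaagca

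In EV protoplasts at 0N, the 29 Aux/IAA genes together took 984 ± 91.4 CPM (SD, n = 3), and 21 of them had a mean of at least 1 CPM. Per kb of exon, IAA19, IAA2 and IAA9 were highest and held 49.3% of the summed per-kb level. In whole roots at 0N the sum was 1015 CPM, and the highest 3 per kb were IAA9, IAA28 and IAA17, with 48.0% of the per-kb sum. IAA28 is known for its part in lateral root formation and IAA17 (AXR3) for gravitropism and root hairs. In the CHX experiment, cells without CHX had IAA9, IAA16 and IAA28 on top, EV cells with CHX had IAA2, IAA19 and IAA9, and TGA4 cells with CHX had IAA2, IAA19 and IAA16.

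The comparison of TGA4 with EV asks which genes the factor changes. Every Aux/IAA gene that passed the test in these comparisons was lower in TGA4 cells. The receptor AFB2 was higher, though it did not pass the test with CHX in the CHX experiment. The summed Aux/IAA level in TGA4 cells was 65.6% of that in EV cells at 0N, 76.3% at 5N and 66.0% at 60N. In the CHX experiment it was 68.7% in cells free of CHX and 77.3% in cells given it. The 5 receptors other than AFB4 summed to between 94.5% and 114% of EV. By edgeR's quasi-likelihood test with Benjamini-Hochberg adjustment over all genes tested, 12 of 28 tested members changed at 0N (11 lower and 1 higher), where 8.86% of all 18342 tested genes changed (3.13% lower and 5.74% higher). At 5N, 6 of 28 changed (5 lower and 1 higher; background 7.89%, with 2.48% lower and 5.41% higher), and at 60N 10 of 28 (9 lower and 1 higher; background 7.74%, with 2.52% lower and 5.21% higher). The 7 genes that did not pass the filter on low counts were IAA6, IAA15, IAA20, IAA27, IAA31, IAA32 and IAA33. The median log2 fold change of the tested members was -0.44 at 0N, -0.25 at 5N and -0.37 at 60N, beside -0.03, -0.01 and -0.03 over all tested genes.

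IAA2, IAA9, IAA11, IAA18 and IAA19 were lower in TGA4 cells at each of the 3 doses, 5 of 28 members, where 114 of 18342 genes (0.622%) were. The doses have separate libraries, but the wells of a vector share their transfected cells. All 5 carry the degron core, as do 23 of all 29 Aux/IAA genes. IAA19 (MSG2, AT3G15540, chromosome 3, 5264001 to 5265695), known as a partner of ARF7 in tropic bending, had 152, 157 and 130 CPM in EV_0N and 84.2, 81.4 and 74.9 CPM in TGA4_0N. At 5N it had 111, 123 and 140 CPM in EV against 70.9, 61.5 and 64.1 CPM in TGA4, and at 60N 175, 106 and 118 CPM against 56.8, 56.0 and 54.2 CPM. The vectors did not overlap at any dose, and the log2 fold change was -0.87 ± 0.15 at 0N (SE; adjusted p = 4.28e-04), -0.93 ± 0.15 at 5N (adjusted p = 2.65e-04) and -1.26 ± 0.15 at 60N (adjusted p = 5.86e-06).

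IAA11 (AT4G28640, chromosome 4, 14142063 to 14143969) had 51.2, 58.8 and 62.5 CPM in EV_0N and 31.6, 25.5 and 25.2 CPM in TGA4_0N. Its values were 37.2, 33.6 and 33.0 CPM against 18.9, 12.1 and 22.4 CPM at 5N, and 51.1, 44.2 and 42.0 CPM against 15.8, 10.3 and 16.8 CPM at 60N. Every TGA4 well was below every EV well of its dose, with log2 fold changes of -1.07 ± 0.17 (adjusted p = 2.95e-04), -0.95 ± 0.18 (adjusted p = 0.00188) and -1.68 ± 0.18 (adjusted p = 2.18e-06). IAA11 overlaps by 12 bases the gene AT4G28650 on the other strand.

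IAA2 (AT3G23030, chromosome 3, 8180646 to 8182095) had 137, 151 and 184 CPM in EV_0N and 80.5, 77.5 and 74.9 CPM in TGA4_0N. It had 114, 116 and 91.3 CPM against 64.7, 56.1 and 78.4 CPM at 5N, and 121, 156 and 126 CPM against 73.8, 64.0 and 76.1 CPM at 60N. Again no well overlapped within a dose, and the log2 fold changes were -1.02 ± 0.14 (adjusted p = 5.35e-05), -0.69 ± 0.14 (adjusted p = 0.00369) and -0.92 ± 0.14 (adjusted p = 1.87e-04). IAA9 (AT5G65670, chromosome 5, 26253408 to 26256544), among the most abundant repressors, moved less, from 160, 173 and 165 CPM in EV_0N to 128, 118 and 118 CPM in TGA4_0N. Its 5N wells had 162, 158 and 159 CPM against 120, 107 and 117 CPM, and its log2 fold change was between -0.39 and -0.48 over the 3 doses, with adjusted p of 0.0105, 0.00774 and 0.0331. The call of IAA9 was lost without EV_0N replicate 2 or TGA4_0N replicate 2 at 0N, without TGA4_5N replicate 2 at 5N, and at 60N on leaving out any of the 6 wells except EV_60N replicate 1 (log2 fold change -0.24 and adjusted p = 0.20 without EV_60N replicate 2). The EV and TGA4 wells of IAA9 were apart at each dose. IAA18 (AT1G51950), known from a stabilising mutation that disturbs embryo and lateral root formation, had 22.1, 22.2 and 12.9 CPM in EV_5N and 11.4, 8.97 and 13.2 CPM in TGA4_5N, where the third EV well fell among the TGA4 wells. Its log2 fold change was -0.76 at 0N, -0.76 at 5N and -0.73 at 60N, and the call at 5N was lost without EV_5N replicate 1 (log2 fold change -0.64, adjusted p = 0.066), without EV_5N replicate 2 or without TGA4_5N replicate 2, that at 0N without TGA4_0N replicate 3, and that at 60N without TGA4_60N replicate 1 or 2.

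**Figure D1:**
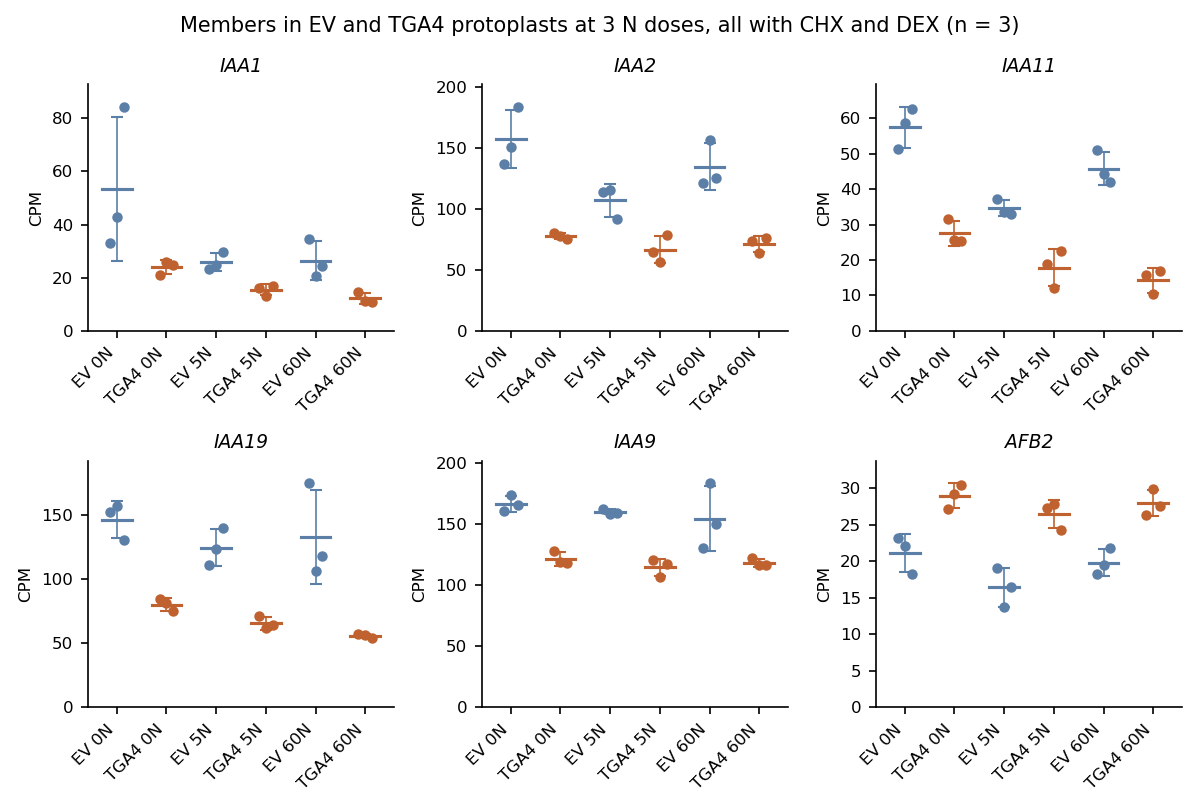
Levels in CPM (linear axes from 0) of IAA1, IAA2, IAA11, IAA19, IAA9 and AFB2 in EV and TGA4 protoplasts at 3 N doses, with each point a well, lines at the mean and bars of 1 SD (n = 3). In IAA2, IAA11, IAA19 and IAA9 every TGA4 well lies below every EV well of the same dose, and in AFB2 above.

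Other members were lower in TGA4 cells at some doses only, and the doses were not shown to differ. IAA1 (AXR5, AT4G14560), known from a stabilising mutation with auxin-resistant roots, had 33.2, 42.7 and 84.4 CPM in EV_0N and 20.9, 26.0 and 24.9 CPM in TGA4_0N (log2 fold change -1.16 ± 0.25, adjusted p = 0.00459). At 60N it had 34.6, 20.4 and 24.2 CPM in EV and 14.5, 11.2 and 10.8 CPM in TGA4 (-1.11 ± 0.27, adjusted p = 0.0129), a call lost without EV_60N replicate 1, TGA4_60N replicate 2 or TGA4_60N replicate 3 (adjusted p of 0.073, 0.066 and 0.065). The wells were apart at both doses and also at 5N, where 23.2, 24.8 and 29.5 CPM stood against 16.1, 13.2 and 17.0 CPM with an adjusted p of 0.107. IAA5 had 14.5, 22.9 and 16 CPM in EV_60N and 8.55, 7.36 and 8.59 CPM in TGA4_60N (-1.14 ± 0.22, adjusted p = 0.00173), and was also lower at 0N (-0.79), a call lost without EV_0N replicate 2 or 3 or TGA4_0N replicate 2. IAA26, known as a phytochrome-associated protein, was lower at 0N (-0.61) and at 60N (-0.63), calls lost without EV_0N replicate 2 or TGA4_0N replicate 2 or 3, and without EV_60N replicate 1 or TGA4_60N replicate 1. The test of an N dose by TGA4 interaction (edgeR, 2 degrees of freedom) called 0 of 28 members and 0 of 18342 genes (0%), and 2 members, IAA5 and IAA11, had an unadjusted p under 0.05, as had 797 genes. DESeq2 called 0 members.

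The calls of the weakly expressed IAA29 and IAA4 at 0N depended on single wells. IAA29, known as a target of the shade factors PIF family, had 1.86, 3.23 and 1.70 CPM in EV_0N and 1.16, 0.563 and 1.09 CPM in TGA4_0N (-1.27 ± 0.37, adjusted p = 0.0327), and 2.92, 2.0 and 2.96 CPM against 1.03, 0.701 and 0.580 CPM at 60N (-1.72 ± 0.38, adjusted p = 0.00584). Its call at 0N was lost on leaving out EV_0N replicate 2 or any of the 3 TGA4_0N wells, and that at 60N was lost on leaving out none. IAA4 had 5.83, 5.19 and 4.14 CPM in EV_0N and 2.84, 2.06 and 1.79 CPM in TGA4_0N (-1.18 ± 0.36, adjusted p = 0.0421), and lost the call on leaving out any of these wells except EV_0N replicate 3. IAA30, which lacks the degron core, was lower at 0N (-0.74) with overlapping wells, and had -0.36 (adjusted p = 0.32) without EV_0N replicate 3. That call was also lost without EV_0N replicate 2 or TGA4_0N replicate 1 or 2. IAA3, IAA7, IAA8, IAA10, IAA12, IAA13, IAA14, IAA16, IAA17, IAA28 and IAA34 passed the test at none of the doses. EV_0N replicate 3 stood above the other wells in several members, with 84.4 CPM of IAA1, 38.4 CPM of IAA30 (17.0 and 23.4 CPM in the others), 28.9 CPM of IAA7, 26.6 CPM of IAA17 and 7.39 CPM of IAA14. Without it the number of members changed at 0N stayed within 1.5 times of 12. It was 5 without EV_0N replicate 2, 5 without TGA4_0N replicate 2 and 7 without TGA4_0N replicate 3, and the number at 60N was 6 without TGA4_60N replicate 2.

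Among the receptors, AFB2 (AT3G26810, chromosome 3, 9867652 to 9870782) had 23.2, 22.0 and 18.3 CPM in EV_0N and 27.1, 29.3 and 30.5 CPM in TGA4_0N. It had 19.1, 13.8 and 16.4 CPM against 27.3, 27.9 and 24.3 CPM at 5N, and 18.2, 19.4 and 21.8 CPM against 26.4, 29.9 and 27.6 CPM at 60N. Every TGA4 well was above every EV well of its dose, with log2 fold changes of 0.45 ± 0.12 (adjusted p = 0.0254), 0.69 ± 0.13 (adjusted p = 0.00155) and 0.50 ± 0.13 (adjusted p = 0.0165). The call at 5N was lost on leaving out none of the wells, that at 0N without EV_0N replicate 2 or 3 or TGA4_0N replicate 2 or 3, and that at 60N without EV_60N replicate 1 or 2 or TGA4_60N replicate 2. Higher at all 3 doses were 3.23% of all genes. TIR1 (AT3G62980), the founding receptor, ranged from 12.2 to 23.2 CPM over the 18 wells, AFB1, known for rapid root growth responses, from 3.11 to 8.26 CPM, AFB3, known as nitrate-responsive in roots, from 9.37 to 17.8 CPM, and AFB5, which like AFB4 prefers the synthetic auxin picloram, from 6.26 to 15.2 CPM. None of these 4 passed the test between vectors at any dose. AFB4 ranged from 15.8 to 39.7 CPM and overlaps another gene, as described with the CHX comparison.

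**Figure D2:**
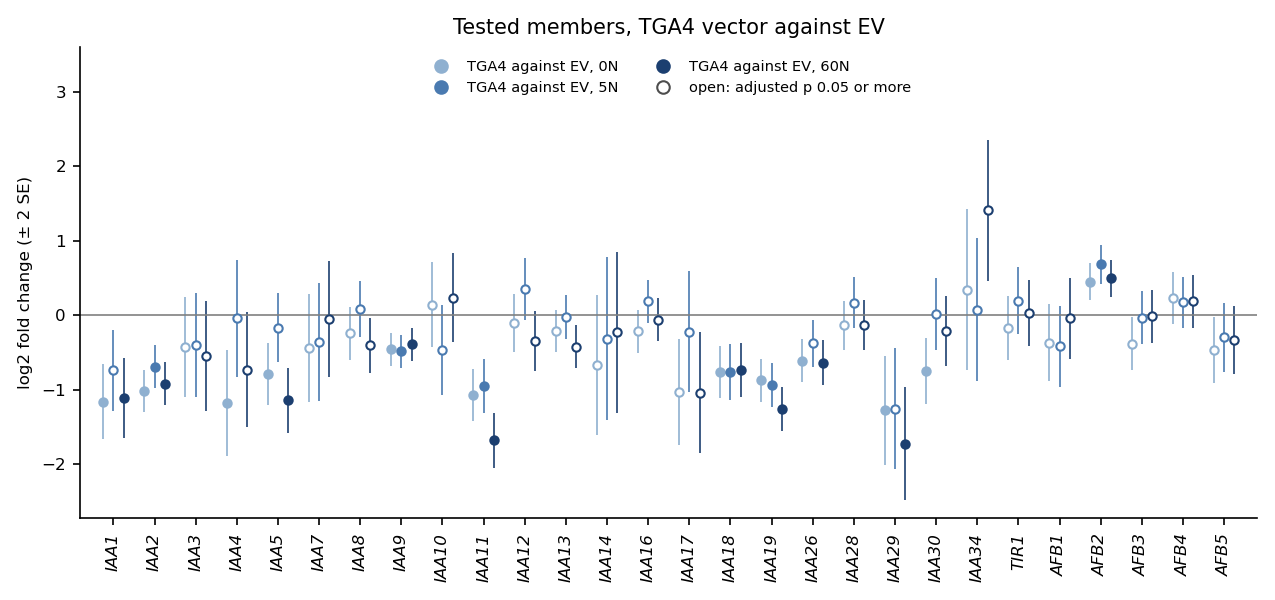
Log2 fold change of TGA4 against EV (vertical axis) for the 28 tested members at 0N, 5N and 60N, with bars of 2 SE and filled points for an adjusted p under 0.05. The filled points of Aux/IAA genes all lie below 0, and those of AFB2 lie above 0 at each dose.

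The CHX experiment repeats the vector comparison in other libraries. Without CHX, 8 of 27 tested members changed (7 lower and 1 higher; background 5.88% of 18674 genes, 2.97% lower and 2.91% higher). With CHX, 4 changed, all lower (background 1.92%, 0.969% lower and 0.948% higher). IAA2 had 97.1, 103 and 86.1 CPM in EV_mChx and 49.0, 49.3 and 45.4 CPM in TGA4_mChx (-1.0 ± 0.12, adjusted p = 9.06e-06), and 230, 238 and 223 CPM in EV_pChx against 136, 135 and 116 CPM in TGA4_pChx (-0.83 ± 0.10, adjusted p = 4.18e-05). IAA9 had 313, 308 and 293 CPM against 196, 185 and 177 CPM without CHX (-0.71 ± 0.10, adjusted p = 1.07e-04) and 226, 232 and 220 CPM against 192, 166 and 159 CPM with CHX (-0.40 ± 0.10, adjusted p = 0.0440). Neither gene overlapped between vectors. IAA2 and IAA9 were the 2 of 25 members tested throughout that were lower in all 5 vector comparisons, where 7 of 16616 genes (0.0421%) were. The call of IAA9 with CHX was lost without any of the EV_pChx wells, TGA4_pChx replicate 2 or replicate 3, beside the losses in the N-dose experiment given above.

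IAA7 (AXR2, AT3G23050), known from agravitropic roots of its stabilising mutant, had 97.5, 108 and 88.5 CPM in EV_mChx and 39.7, 41.9 and 51.2 CPM in TGA4_mChx (-1.13 ± 0.14, adjusted p = 1.66e-05). With CHX it had 72.9, 80.4 and 81.0 CPM against 57.4, 40.7 and 46.7 CPM (-0.71 ± 0.14, adjusted p = 0.00615; adjusted p = 0.099 without TGA4_pChx replicate 2). The vectors were apart in both, whereas in the N-dose experiment IAA7 passed the test at none of the doses. IAA1 was low without CHX, with 3.21, 4.99 and 3.34 CPM in EV_mChx and 0.374, 1.85 and 1.61 CPM in TGA4_mChx (-1.55 ± 0.41, adjusted p = 0.0256, and 0.12, 0.12 and 0.072 without EV_mChx replicate 2, TGA4_mChx replicate 1 or TGA4_mChx replicate 3). It had 26.4, 27.0 and 26.9 CPM against 13.2, 17.1 and 13.3 CPM with CHX (-0.85 ± 0.22, adjusted p = 0.0482), and this call was lost on leaving out any of the 6 libraries. IAA11 had 14.4, 12.7 and 16.9 CPM against 6.74, 6.30 and 3.9 CPM without CHX (-1.42 ± 0.30, adjusted p = 0.00517, and 0.066 without TGA4_mChx replicate 3) and a value of -0.70 ± 0.25 with CHX that missed the test (adjusted p = 0.201).

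IAA8 (-0.66) and IAA16 (-0.40) were the other members lower without CHX, and the call of IAA8 was lost without TGA4_mChx replicate 3 and that of IAA16 on leaving out any of the 6 libraries. AFB2 had 25.3, 25.9 and 30.4 CPM in EV_mChx and 47.5, 53.0 and 53.9 CPM in TGA4_mChx (0.92 ± 0.15, adjusted p = 4.49e-04), with every TGA4 well higher. With CHX it had 16.2, 17.3 and 14.3 CPM against 21, 19.2 and 16.9 CPM, a value of 0.25 with an interval of 2 SE from -0.08 to 0.59 that did not pass the test. IAA19 missed the test in both settings (-0.54 ± 0.21 and -0.28 ± 0.16, adjusted p = 0.139 and 0.503). The test of a TGA4 by CHX interaction called 0 of 27 members in edgeR (background 0.129%) and 0 in DESeq2. In edgeR, 4 of 27 members (IAA7, IAA9, IAA16 and AFB2) had an unadjusted p under 0.05, as had 1236 of 18674 genes. Without TGA4_mChx replicate 3 the number of members changed without CHX was 4, and without TGA4_pChx replicate 2 the number with CHX was 1. It was 2 without any of the EV_pChx wells or TGA4_pChx replicate 3.

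Cell type markers moved with the vector in some comparisons. Of 8 tested markers, the stele marker WOL was lower in TGA4 cells at 0N (log2 fold change -0.93 ± 0.23) and the endodermis marker CASP1 at 5N (-1.62 ± 0.30), and none passed the test at 60N. The other stele markers were not lower at 0N. PHO1 had means of 5.71 CPM in EV_0N and 7.27 CPM in TGA4_0N, and SHR 0.958 and 0.965 CPM. Of 7 tested in the CHX experiment, CASP1 and the phloem marker APL were lower in TGA4 cells without CHX (-0.96 and -0.49) and with CHX (-1.62 and -0.60). The other endodermis marker, SCR, did not follow CASP1 with CHX, with means of 8.60 CPM in EV_pChx and 9.41 CPM in TGA4_pChx. Without CHX its mean was lower in TGA4 cells, at 8.33 CPM against 10.995 CPM in EV_mChx. The summed endodermis markers ranged from 62.0 to 66.8 CPM in EV_mChx and from 28.5 to 41.8 CPM in TGA4_mChx, and the cortex marker CO2 was at 0 in all. In bulk libraries, fewer cells of a type and less RNA per cell cannot be told apart. The part of these shifts in the changes of the Aux/IAA genes was not tested.

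The effect of CHX itself bears on every library of the N-dose experiment, all of which received it. CHX is known to raise early auxin-induced transcripts. In EV cells, 18 of 27 tested members changed with CHX, 8 higher and 10 lower, where 48.1% of all genes changed (23.6% higher and 24.5% lower). In TGA4 cells, 17 changed, 11 higher and 6 lower (background 45.9%, with 23.4% higher and 22.6% lower). The repressors split, with IAA30, IAA1, IAA19 and IAA2 far higher with CHX and IAA9, IAA28 and IAA18 lower in EV cells, while of the receptors TIR1, AFB2 and AFB5 were lower. The Aux/IAA sum moved little, from 1108 to 1187 CPM in EV cells, and the sum of the 5 receptors other than AFB4 fell from 143 to 89.6 CPM. Of 7 tested cell type markers, the stele marker PHO1 was higher with CHX in EV cells (log2 fold change 0.49). In TGA4 cells PHO1 (-0.54), the root hair marker COBL9 (-2.20) and the endodermis marker CASP1 (-0.89) were lower with CHX. The means of the other stele and endodermis markers rose with CHX in TGA4 cells, though 0 markers were called higher. WOL went from 15.04 to 21.3 CPM, SHR from 0.954 to 1.21 CPM and SCR from 8.33 to 9.41 CPM. The part of these marker shifts was not tested.

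IAA30 (AT3G62100), without the degron core, had 0, 0.966 and 0.371 CPM in EV_mChx and 12.8, 20.3 and 27.8 CPM in EV_pChx (log2 fold change 5.15 ± 0.52, adjusted p = 2.99e-08). In TGA4 cells it had 0, 1.85 and 0.459 CPM against 9.56, 16.3 and 13.7 CPM (4.16 ± 0.58, adjusted p = 3.30e-06). The values without CHX were near the level of 3 counts, so the size of this fold is uncertain. IAA1 rose from 3.21, 4.99 and 3.34 CPM to 26.4, 27.0 and 26.9 CPM in EV cells (2.75 ± 0.25, adjusted p = 5.77e-09) and from 0.374, 1.85 and 1.61 CPM to 13.2, 17.1 and 13.3 CPM in TGA4 cells (3.45 ± 0.35, adjusted p = 3.50e-08). IAA19 rose from 26.6, 23.7 and 32.3 CPM to 95.5, 110 and 144 CPM in EV cells (2.07 ± 0.17, adjusted p = 1.24e-09) and from 16.5, 21.5 and 18.8 CPM to 71.7, 103 and 111 CPM in TGA4 cells (2.33 ± 0.19, adjusted p = 1.25e-09). For IAA1, IAA19, IAA30 and IAA2 (1.27 ± 0.10 in EV cells, 1.44 ± 0.12 in TGA4 cells), every well with CHX was above every well without it.

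**Figure D3:**
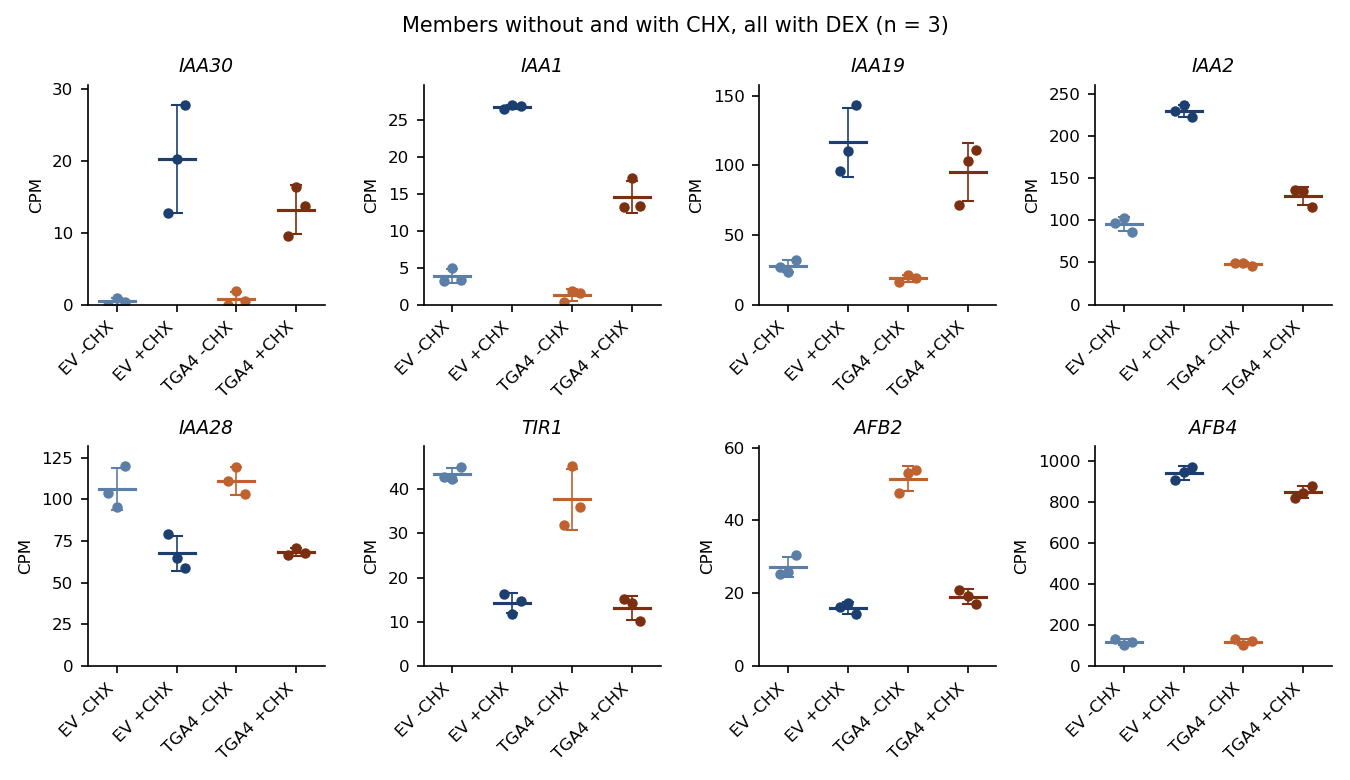
Levels in CPM (linear axes from 0) of 8 members without CHX (-CHX) and with it (+CHX) in EV and TGA4 cells, with each point a well, lines at the mean and bars of 1 SD (n = 3). IAA30, IAA1, IAA19, IAA2 and AFB4 lie higher with CHX in both vectors, and IAA28, TIR1 and AFB2 lie lower.

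Members of low level added to the count. IAA3 (SHY2), known for setting root meristem size, had 1.60, 0 and 3.34 CPM in EV_mChx and 3.59, 4.92 and 7.61 CPM in EV_pChx (1.70 ± 0.61, adjusted p = 0.0253), and lost the call without EV_mChx replicate 1, EV_mChx replicate 2 or EV_pChx replicate 3. IAA3 also overlaps AT1G04230 on the other strand by 640 bases. IAA32 had 1.92, 1.93 and 0.186 CPM against 4.91, 5.12 and 4.52 CPM in EV cells (1.88 ± 0.58, adjusted p = 0.0103, and 0.051 without EV_mChx replicate 3) and 2.62, 0.741 and 1.84 CPM against 8.82, 6.22 and 2.42 CPM in TGA4 cells (1.74 ± 0.60, adjusted p = 0.0214), where the call was lost on leaving out 4 of the 6 libraries in turn, TGA4_mChx replicate 2 or 3 and TGA4_pChx replicate 1 or 2. IAA32 overlaps AT2G01210 on the other strand by 826 bases, and the mean of that gene also stood higher with CHX, at 7.06 against 1.76 CPM in EV cells and 8.39 against 1.46 CPM in TGA4 cells, and since the use of strand in counting was not stated, the reads of this pair cannot be told apart. IAA15 rose in TGA4 cells from 0.749, 0.741 and 0.229 CPM to 1.84, 2.84 and 5.24 CPM (2.56 ± 0.71, adjusted p = 0.00497). IAA12 (BODENLOS), known as the partner of ARF5 in forming the embryonic root, was higher with CHX in both vectors (0.83 and 0.89), and IAA4, IAA5 and IAA11 in TGA4 cells (1.11, 1.60 and 1.22). In TGA4 cells the call was lost on leaving out 3 of the 6 libraries for IAA4 (TGA4_mChx replicate 1 and TGA4_pChx replicates 1 and 3), 3 for IAA5 (TGA4_mChx replicates 2 and 3 and TGA4_pChx replicate 2) and 2 for IAA12 (TGA4_mChx replicate 1 and TGA4_pChx replicate 2).

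TIR1 had 42.6, 42.3 and 45.1 CPM in EV_mChx and 16.3, 11.8 and 14.7 CPM in EV_pChx (-1.59 ± 0.17, adjusted p = 9.27e-08). In TGA4 cells it had 31.8, 45.2 and 36.0 CPM against 15.1, 14.2 and 10.1 CPM (-1.50 ± 0.19, adjusted p = 1.08e-06), and no well with CHX reached a well without it. AFB2 fell by 0.77 on the log2 scale in EV cells (adjusted p = 2.62e-04) and by 1.43 in TGA4 cells (adjusted p = 1.17e-07), and AFB5, from 27.6, 26.1 and 25.1 CPM to 16.1, 13.0 and 15.2 CPM in EV cells, by 0.82. AFB1 had 12.5, 12.7 and 14.3 CPM against 11.8, 17.1 and 15 CPM, and AFB3 36.9, 34.4 and 29.1 CPM against 33.2, 28.8 and 28.0 CPM, neither passing the test in EV cells. AFB3 was lower in TGA4 cells (-0.41, adjusted p = 0.0365), a call lost in DESeq2 (adjusted p = 0.097), with RLE scaling and on leaving out any of the 6 libraries except TGA4_mChx replicate 2. Among the repressors lower in EV cells, IAA28 went from 104, 95.4 and 120 CPM to 79.4, 64.8 and 58.9 CPM (-0.64 ± 0.12, adjusted p = 1.52e-04), and the others, IAA26, IAA18, IAA9, IAA8, IAA7 and IAA16, fell by 0.61 to 0.26. Of these, IAA8, IAA7 and IAA16 did not pass in DESeq2 (adjusted p of 0.076, 0.13 and 0.11). On leaving out libraries in turn, IAA26 lost the call without EV_mChx replicate 2 or EV_pChx replicate 3, IAA8 without EV_mChx replicate 2 or EV_pChx replicate 1 or 3, IAA7 without any except EV_mChx replicate 3 and IAA16 without any except EV_pChx replicate 3.

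AFB4 (AT4G24390) cannot be read as a receptor level here. It had 129, 100 and 117 CPM in EV_mChx and 906, 947 and 972 CPM in EV_pChx (3.03 ± 0.12, adjusted p = 2.84e-15), and 130, 102 and 122 CPM against 820, 841 and 879 CPM in TGA4 cells (2.84 ± 0.12, adjusted p = 1.33e-14). AT4G24380, on the other strand, overlaps it by 644 bases and moved with it, from a mean of 106 CPM in EV_mChx to 590 CPM in EV_pChx. In the N-dose experiment, whose cells also received CHX, AFB4 had 18.2 CPM and AT4G24380 273 CPM in EV_60N. Whether the counting used strand was not stated, so the reads of the pair cannot be told apart, and AFB4 was left out of the receptor sums. Of the other members, IAA13 overlaps AT2G33300 by 1176 bases, IAA10 overlaps AT1G04105 by 619, AFB1 overlaps AT4G04455 by 423, AFB3 overlaps AT1G04977 by 638 and IAA34 overlaps AT1G15060 on its own strand by 156.

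The nitrogen comparisons in EV protoplasts both use EV_0N, come from a fit that does not pair the wells, and are given side by side. At 60N against 0N, 2 of 28 members changed, both lower (background 3.59%, with 1.30% lower and 2.30% higher), and at 5N against 0N 6 changed, all lower (background 1.59%, with 0.556% lower and 1.04% higher). IAA1 had 33.2, 42.7 and 84.4 CPM in EV_0N, 23.2, 24.8 and 29.5 CPM in EV_5N and 34.6, 20.4 and 24.2 CPM in EV_60N, with log2 fold changes of -1.05 ± 0.25 at 5N (adjusted p = 0.0376) and -1.02 ± 0.25 at 60N (adjusted p = 0.0236). IAA30 had 17.0, 23.4 and 38.4 CPM at 0N, 14.6, 12 and 12 CPM at 5N and 16.3, 14.2 and 12.8 CPM at 60N, with -1.03 ± 0.23 (adjusted p = 0.0250) and -0.86 ± 0.22 (adjusted p = 0.0326). EV_0N replicate 3 was highest in both genes. Without it the values were -0.55 and -0.53 for IAA1 and -0.66 and -0.48 for IAA30, with adjusted p of 0.22, 0.18, 0.16 and 0.24, and 0 members were called in either comparison.

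At 5N, IAA5 had 9.32, 12.7 and 6.75 CPM against 17.5, 19.0 and 20.7 CPM at 0N (-0.99 ± 0.21, adjusted p = 0.0237). IAA11 had 37.2, 33.6 and 33.0 CPM against 51.2, 58.8 and 62.5 CPM (-0.73 ± 0.17, adjusted p = 0.0344), and IAA26 17.6, 16.2 and 13.3 CPM against 25, 26.0 and 22.3 CPM (-0.64 ± 0.15, adjusted p = 0.0302). IAA2 had 114, 116 and 91.3 CPM against 137, 151 and 184 CPM (-0.56 ± 0.14, adjusted p = 0.0488). The 5N wells were below the 0N wells in these 4 genes, yet 0 members were called without EV_0N replicate 2, without EV_0N replicate 3 or without EV_5N replicate 3, and 1 without EV_5N replicate 2. In TGA4 cells, 1 of 28 members changed at 60N against 0N (background 3.03%, with 1.23% lower and 1.80% higher). It was IAA11, with 31.6, 25.5 and 25.2 CPM at 0N and 15.8, 10.3 and 16.8 CPM at 60N (-0.94 ± 0.19, adjusted p = 0.00928, and 0.071 without TGA4_60N replicate 2). At 5N against 0N in TGA4 cells, edgeR and DESeq2 each called 0 members (background 0.273%). In edgeR, 5 of 28 members had an unadjusted p under 0.05, as had 975 of 18342 genes. The median over the tested members was -0.38 at 5N and -0.28 at 60N in EV cells, beside -0.02 and -0.01 over all genes.

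Whole roots and protoplasts differed in most members, as in most genes. At 0N, 31 of 33 tested members differed, 13 higher and 18 lower in protoplasts, where 86.4% of 21007 genes differed (40.4% higher and 46.0% lower). At 60N, 30 of 33 differed, 13 higher and 17 lower (background 85.3%, with 40.8% higher and 44.5% lower). Higher in protoplasts were IAA30, IAA5, IAA19, IAA29, IAA11, IAA1 and IAA2, and lower were IAA27, IAA31, IAA17, IAA4 and 5 of the 6 receptors. The median log2 fold change of the tested members was -0.47 at 0N and -0.34 at 60N, beside -0.15 and -0.12 over all genes. The summed level of TIR1, AFB1, AFB2, AFB3 and AFB5 in protoplasts was 29.1% of that in roots at 0N (91.2 against 313 CPM) and 36.4% at 60N, while the Aux/IAA sum was 128% and 117% of that in roots. The tissues also differ in how plants were grown, in digestion, sorting and transfection, which cannot be told apart here.

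IAA19 had 7.77, 8.73, 6.27 and 5.85 CPM in Root_0N and 218, 233, 217 and 228 CPM in Protoplast_0N (log2 fold change 4.97 ± 0.12, adjusted p = 3.07e-19). IAA30 had 0.733, 0.669, 0.707 and 0.683 CPM in Root_0N and 50.4, 48.4, 38.9 and 47.8 CPM in Protoplast_0N (6.04 ± 0.21, adjusted p = 6.35e-17). IAA5 had 0.489, 0.293, 0.202 and 0.128 CPM against 15.9, 15.2, 15 and 17.3 CPM (5.81 ± 0.32, adjusted p = 1.84e-13). All 3 genes also stood high in protoplasts at 60N, with 5.59 for IAA19, 4.97 for IAA30 and 7.68 for IAA5, whose root level at 60N was 0.0705 CPM. These libraries had neither CHX nor DEX, whereas EV_mChx cells had DEX without CHX. IAA30 had group means of 46.4 and 34.8 CPM in these protoplasts and 0.446 CPM in EV_mChx. IAA19 had 224 and 169 CPM against 27.5 CPM. The tables of the 2 experiments were normalised separately.

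In the other direction, IAA27, known as a phytochrome-associated protein like IAA26, had 34.1, 43.1, 39.2 and 35.3 CPM in Root_0N and 0.424, 1.66, 0.635 and 0.632 CPM in Protoplast_0N (-5.47 ± 0.23, adjusted p = 2.76e-15). At 60N its roots had 34.7, 48.8, 45.6 and 37.6 CPM and its protoplasts at most 0.784 CPM (-6.32 ± 0.26). IAA33 had 3.62, 2.97, 3.74 and 4.87 CPM in Root_0N, and all 8 protoplast libraries held 0 counts, so it was at least 50.9-fold lower in protoplasts at 0N and at least 26.8-fold lower at 60N, against a floor of 3 counts over the group. IAA20 had 0.538, 0.251, 0.354 and 0.683 CPM in Root_0N and 0 in all 4 Protoplast_0N libraries, at least 6.11-fold lower. IAA31 had 1.1, 1.46, 1.13 and 1.67 CPM in Root_60N and 0, 0.098, 0 and 0 CPM in Protoplast_60N (adjusted p = 2.79e-07). The protoplasts held 1 count and the roots 98, a ratio of roots to protoplasts of 49.98 with a 95% exact binomial interval of 8.76 to 1994 that covers counting error only. IAA15 had 0 counts in all 8 root libraries and 0.318, 0.49, 0.846 and 0.181 CPM in Protoplast_0N, and IAA6 had at most 0.836 CPM in any library of this experiment; neither passed the filter. IAA10 and IAA34 were the tested members that did not differ between tissues at 0N by the test. IAA20, IAA31 and IAA33 lack the degron core, as does IAA30, which stood higher in protoplasts. IAA17 had 88.4, 100, 91.2 and 85.3 CPM in Root_0N and 3.81 to 7.15 CPM in Protoplast_0N.

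**Figure D4:**
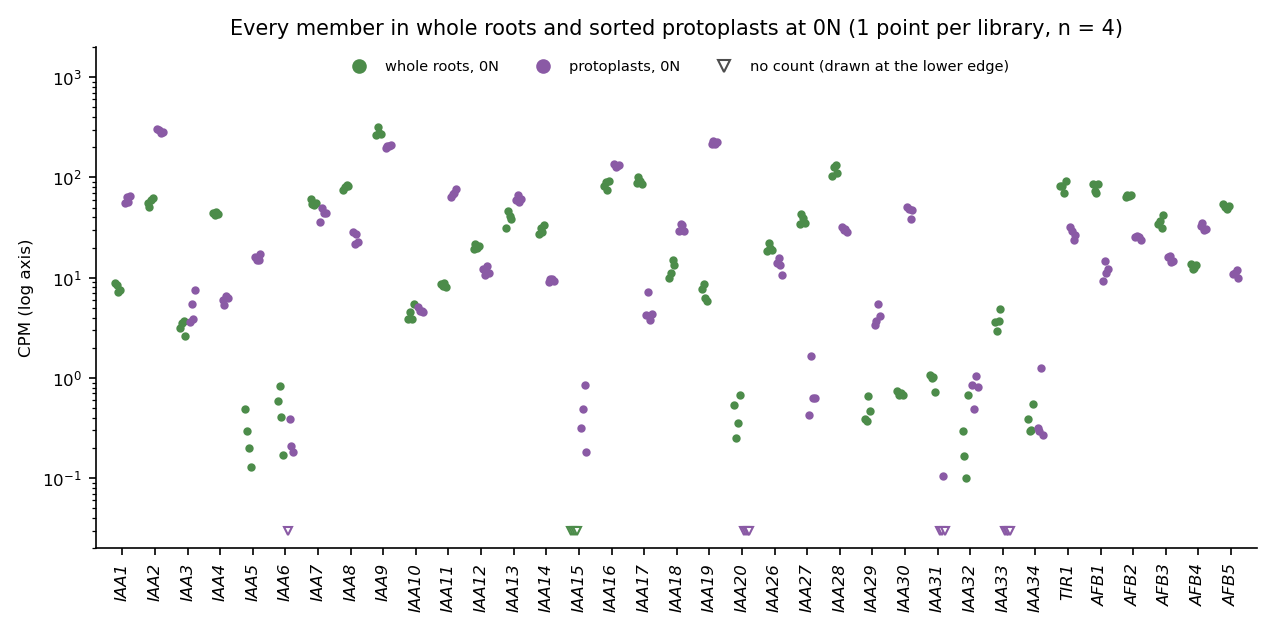
Levels in CPM (log axis) of all 35 members in whole roots and protoplasts at 0N, with each point a library (n = 4) and open triangles at the lower edge for libraries with 0 counts. IAA5, IAA19 and IAA30 lie higher in protoplasts, IAA17, IAA27 and the receptors TIR1, AFB1, AFB2, AFB3 and AFB5 lie lower, and IAA33 has 0 counts in every protoplast library.

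Among the receptors, AFB1 had 85.8, 73.0, 69.7 and 85.7 CPM in Root_0N and 9.34, 14.8, 11.1 and 12.2 CPM in Protoplast_0N (-2.72 ± 0.15, adjusted p = 1.52e-13). TIR1 had 82.7, 83.1, 69.6 and 91.9 CPM against 32.4, 29.4, 23.6 and 26.6 CPM (-1.55 ± 0.11, adjusted p = 9.10e-12). AFB5 had 54.7, 50.8, 47.9 and 52.2 CPM against 10.8, 11.1, 12.1 and 9.85 CPM (-2.23 ± 0.10, adjusted p = 7.65e-15), and AFB2 and AFB3 were lower (-1.39 and -1.23). No protoplast library reached a root library of the same dose in these 5 genes. AFB4 was higher in protoplasts (1.32 ± 0.10), where AT4G24380 stood at 311 CPM against 1.84 CPM in roots.

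Markers moved with the tissue as well. Of 14 tested markers, 11 were lower in protoplasts at 0N and 10 at 60N, and SCR and APL were higher at both doses. The endodermis markers split, since CASP1 was lower at both doses. At 0N, SCR had means of 28.6 CPM in roots and 47.1 CPM in protoplasts, and CASP1 91.1 and 32.8 CPM. The summed stele markers ranged from 325 to 380 CPM in Root_0N and from 22.7 to 30.8 CPM in Protoplast_0N, and the root hair markers from 16.1 to 28.5 CPM and from 0.196 to 0.813 CPM. The phloem marker was higher in protoplasts (49.2 against 14.1 CPM), and shoot markers ranged from 13.7 to 100.03 CPM in Root_0N and were at most 0.903 CPM in Protoplast_0N. The part of cell composition in the differences of the members was not tested.

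In whole roots, 60N against 0N changed 12 of 33 members, 4 higher and 8 lower (background 43.2%, with 17.4% higher and 25.7% lower). IAA2 had 55.7, 50.2, 59.9 and 62.4 CPM in Root_0N and 124, 115, 130 and 138 CPM in Root_60N (1.15 ± 0.10, adjusted p = 1.24e-08). IAA19 went the other way, from 7.77, 8.73, 6.27 and 5.85 CPM to 3.53, 2.98, 3.29 and 4.23 CPM (-1.03 ± 0.13, adjusted p = 1.96e-06). IAA14 (SOLITARY-ROOT), whose stabilised form is known to block lateral root initiation, had 27.2, 31.4, 28.2 and 33.7 CPM against 10.9, 17.3, 19.1 and 18.8 CPM (-0.87 ± 0.16, adjusted p = 1.70e-04). In each of these genes the doses were fully apart. IAA11 had 8.75, 8.27, 8.94 and 8.12 CPM against 5.69, 4.22, 4.36 and 5.17 CPM (-0.81 ± 0.13), and IAA12 had 19.5, 21.4, 19.9 and 20.7 CPM against 11.2, 13.0, 12.9 and 11 CPM (-0.76 ± 0.12), again with no overlap.

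IAA5 was called lower (-1.87 ± 0.73, adjusted p = 0.0453) on values of 0.489, 0.293, 0.202 and 0.128 CPM against 0, 0.162, 0.119 and 0 CPM, which overlap and lie at the level of a few counts, and the call was lost with a replicate block (adjusted p = 0.052) and on leaving out 4 of the 8 libraries in turn, Root_0N replicate 1 or 2 and Root_60N replicate 1 or 4. IAA1 was also lower (-0.68), and IAA16, IAA18 and IAA26 were higher (0.40, 0.39 and 0.33). The call was lost on leaving out 3 of the 8 libraries for IAA18 (Root_0N replicates 1 and 2 and Root_60N replicate 1) and 5 for IAA26 (Root_0N replicates 1, 3 and 4 and Root_60N replicates 2 and 3). AFB3, had 34.6, 36.6, 31.2 and 41.7 CPM at 0N and 28.1, 28.0, 31.5 and 28.4 CPM at 60N (-0.31 ± 0.09, adjusted p = 0.00999), and AFB2 had 63.3, 66.6, 65.9 and 66.4 CPM against 55.7, 50.9, 58.2 and 55.3 CPM (-0.25 ± 0.07, adjusted p = 0.00576). For AFB3 the lowest root library at 0N lay just below the highest at 60N, and for AFB2 the doses were apart. In a fit of the root libraries alone neither passed (adjusted p of 0.080 and 0.082), and AFB3 lost the call without Root_0N replicate 4. TIR1 had 0.15 ± 0.10 and AFB1 -0.29 ± 0.13, both short of the test. Of 14 tested markers, SCR, CASP1 and SHR were higher at 60N in roots (0.44, 0.44 and 0.30) and PHO1 lower (-0.34), and their part was not tested.

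In protoplasts, 60N against 0N changed 2 of 33 members (background 2.41%, with 0.876% lower and 1.53% higher). IAA19 had 218, 233, 217 and 228 CPM at 0N and 165, 169, 171 and 172 CPM at 60N (-0.40 ± 0.10, adjusted p = 0.0310), and AFB3 had 16.1, 16.4, 14.3 and 14.7 CPM against 22.3, 21, 21.7 and 18.3 CPM (0.44 ± 0.11, adjusted p = 0.0329). The doses were apart in both genes. The call of AFB3 was lost on leaving out any of the 8 libraries except Protoplast_60N replicate 4 and with no filter on low counts (adjusted p = 0.054), and that of IAA19 without Protoplast_0N replicate 2 or 4 or Protoplast_60N replicate 3. The count was 0 without Protoplast_0N replicate 2, without Protoplast_0N replicate 4 and with a replicate block, and 5 in DESeq2. IAA2, the member that rose most in roots, had 302, 296, 277 and 286 CPM at 0N and 253, 354, 297 and 286 CPM at 60N in protoplasts (0.04 ± 0.10, adjusted p = 0.909). Of 14 tested markers, PHO1 was higher at 60N in these protoplasts (0.77, adjusted p = 0.00951), and its part was not tested.

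The difference in N response between the tissues was tested as an interaction, and 8 of 33 members passed (background 24.4%). The largest among these was that of IAA2, with a response in protoplasts minus that in roots of -1.11 ± 0.14 (adjusted p = 6.63e-06). AFB3 was lower at 60N in roots and higher in protoplasts, a difference of 0.75 ± 0.14 (adjusted p = 5.12e-04). IAA12 (0.73 ± 0.18, adjusted p = 0.00504), IAA19 (0.62 ± 0.16, adjusted p = 0.00797) and IAA11 (0.54 ± 0.17, adjusted p = 0.0219) had a more negative response in roots than in protoplasts. The call of IAA11 was lost on leaving out any of 10 of the 16 libraries (each of the 8 protoplast libraries and Root_60N replicate 2 or 3) and with no filter on low counts, and without Protoplast_60N replicate 2 its value was 0.29 (adjusted p = 0.16) and that of IAA12 0.47 (adjusted p = 0.054). AFB5 and AFB2 differed by 0.48 and 0.43. The call of AFB5 was lost on leaving out any protoplast library except Protoplast_60N replicate 3 (0.30 without Protoplast_60N replicate 2), and that of AFB2 without Protoplast_0N replicate 4 or Protoplast_60N replicate 1 (0.28 without the latter). IAA30 differed by -1.07 ± 0.33 (adjusted p = 0.0220), from 0.733, 0.669, 0.707 and 0.683 CPM to 1.49, 0.974, 1.08 and 0.888 CPM in roots and from 50.4, 48.4, 38.9 and 47.8 CPM to 22.5, 44.3, 37.8 and 34.5 CPM in protoplasts, neither response passing the test alone, and the difference was -0.89 without Root_60N replicate 1 (adjusted p = 0.084). PHO1 differed as well (1.11, adjusted p = 2.90e-04), and its part was not tested. Without Protoplast_0N replicate 4 the count was 5.

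**Figure D5:**
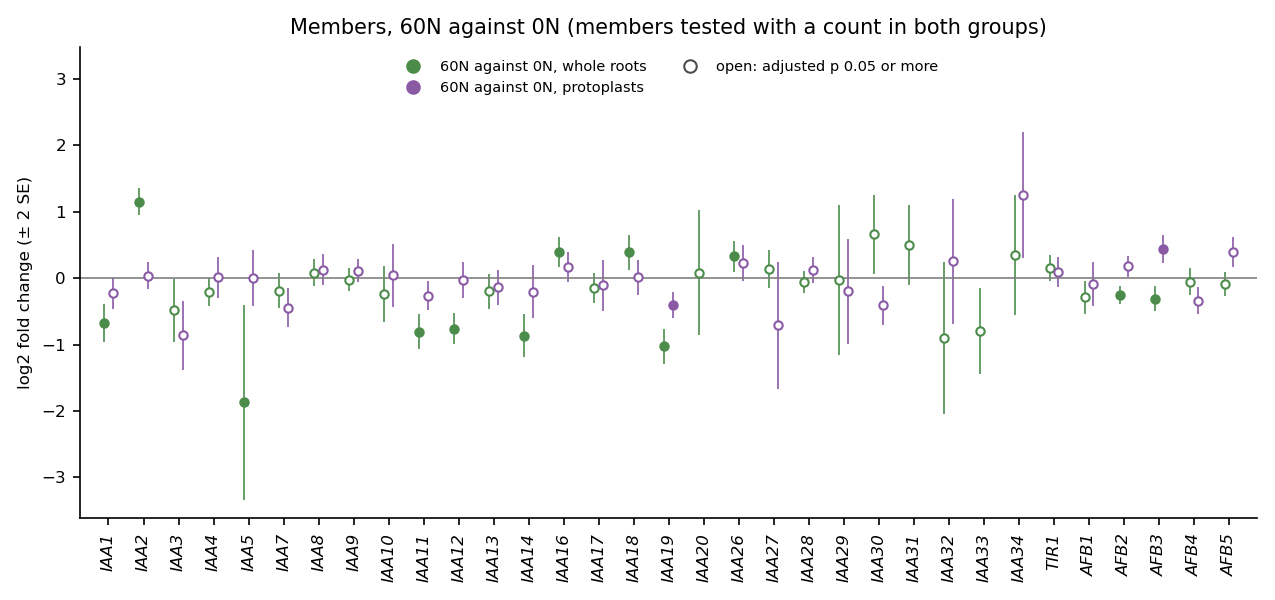
Log2 fold change of 60N against 0N (vertical axis) in whole roots and in protoplasts (n = 4 per group) for the tested members, with bars of 2 SE and filled points for an adjusted p under 0.05. IAA20, IAA31 and IAA33 are left out in protoplasts, where they were at or near 0. IAA2 stands at 1.15 in roots and 0.04 in protoplasts, and AFB3 at -0.31 and 0.44.

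The rest of the pathway was followed in lists of 23 ARF genes, 5 TPL and TPR corepressors, 10 genes of the SCF core and its cullin cycle, and 8 GH3 genes. The GH3 enzymes join auxin to amino acids, and several of their genes, though not all, are themselves auxin-induced. At 0N 2 of 7 tested GH3 genes were higher and 0 lower, and at 5N and at 60N 3 were higher and 0 lower, where 5.74%, 5.41% and 5.21% of all genes were higher. GH3.3 had log2 fold changes of 1.69, 2.20 and 1.91 at 0N, 5N and 60N, and GH3.17 of 1.27 and 1.49 at 5N and 60N. Of 14 tested ARF genes, ARF5 (MONOPTEROS) was higher at each dose (0.72, 0.71 and 0.79), ARF10 at 5N and 60N (0.72 and 0.68), and ARF16 (-1.08) and ARF4 (-0.56) were lower at 0N, where 3.13% of all genes were. No TPL or SCF gene passed the test at any dose. Without CHX, GH3.3, GH3.17 and TPR1 were higher (1.77, 1.05 and 0.60; background 2.91% higher), and with CHX 3 GH3 genes (GH3.3 at 0.82; background 0.948% higher).

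With CHX in EV cells, where 23.6% of all genes were higher and 24.5% lower, 5 of 7 tested GH3 genes were higher and 1 lower, led by GH3.3 (6.68), GH3.1 (6.33) and GH3.2 (3.94). Of 14 tested ARF genes 2 were higher, ARF19 (3.23) and ARF18 (2.23), and 6 lower, 8 in all and near the share of all genes (48.1%). Of the corepressors 4 of 5 TPL and TPR genes were lower (TPL at -1.42) and 0 higher, and of the 10 SCF genes 7 were lower (ASK1 at -1.13) and 0 higher. In TGA4 cells (background 23.4% higher and 22.6% lower) CHX gave 4 GH3 genes higher and 1 lower, 1 ARF gene higher and 6 lower, and 3 TPL and TPR genes and 8 SCF genes lower. With 60N in EV cells (background 1.30% lower), 2 ARF genes (ARF16 at -1.27, ARF10 at -0.70) and 3 GH3 genes were lower and none of these lists had a gene higher. In whole roots with 60N, where 17.4% of all genes were higher and 25.7% lower, 10 of 17 tested ARF genes were lower and 0 higher (ARF20 at -2.11), 5 of 7 GH3 genes lower, 2 TPR genes lower, and of the SCF genes ECR1 higher (0.24) and CAND1 lower (-0.37). In protoplasts of that experiment GH3.1 alone was lower (-0.66; background 0.876% lower). Between tissues at 0N, where 86.4% of all genes differed (40.4% higher and 46.0% lower in protoplasts), 6 of 7 GH3 genes were higher in protoplasts, and of 17 ARF genes 5 were higher and 10 lower, 15 in all and near that share. Of the TPL and TPR genes 3 were higher and 2 lower, and of the 10 SCF genes 2 were higher and 7 lower.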

How the data were processed

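Per the methods and the labels, the authors aligned poly(A) reads to TAIR10 with TopHat2, counted them per gene with GenomicFeatures and GenomicAlignments, and deposited whole-number counts per gene, not normalised. How reads over overlapping genes were assigned, whether strand was used and which annotation was used are not given in the sources used here. The 3 experiments were fitted separately with edgeR 4.0.16 in R 4.3.3 (TMM scaling, filterByExpr, one mean per group, quasi-likelihood F-test), and a gene was called at an adjusted p (Benjamini-Hochberg, over all genes tested) under 0.05. CPM are counts per megacount of the TMM-scaled total, and each SE was obtained from the size of the log2 fold change and its F statistic, as their ratio after taking the root of F. The authors also modelled a batch, which the labels do not give and which was not fitted here. Coordinates, coding sequences and promoter windows come from the RefSeq annotation of TAIR10.1, which matched 32795 of 33016 and 33056 of 33341 gene IDs.

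The members and lists were chosen with earlier results of these data known. Values per library are given for up to 6 members with the largest absolute log2 fold change among those called in a comparison, and for the receptors. Alternatives were DESeq2 1.42.0, RLE size factors, no filter on low counts, a replicate block, fits of only the groups compared, a minimum log2 change of 1 in either direction, and each library left out. Same-numbered libraries deviated together for every number only between EV_60N and EV_0N (r of 0.19 to 0.29 across genes, the smallest to the largest of the 3 numbers). The fit reported for that comparison did not use these numbers, which come from the labels, as pairs. Only the alternative with a replicate block used them. A single comparison of each experiment was also run on simulated counts of independent libraries. That run does not cover shared transfections, paired wells or the interaction tests.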

Additional observations from a re-analysis of the deposited data

Results flagged for a closer look

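In 7 of 129 checks, each of 1 tested member in 1 group of 4, a library stood apart from the other 3 by more than Dixon's 95% limit, which chance exceeds in about 1 in 20 groups, so that about as many would pass it by chance. In Protoplast_0N, replicate 2 had 7.15 CPM of IAA17 (3.81 to 4.34 CPM in the others) and 1.66 CPM of IAA27 (0.424 to 0.635 CPM), and replicate 3 had 0.106 CPM of IAA31 (0 in the others) and 1.27 CPM of IAA34 (0.271 to 0.318 CPM). In Protoplast_60N, replicate 2 had 0.0980 CPM of IAA31 (0 in the others) and replicate 1 had 30.4 CPM of AFB2 (27.5 to 27.8 CPM). In Root_60N, replicate 3 had 31.5 CPM of AFB3 (28.0 to 28.4 CPM). Both IAA17 and IAA27 were high in whole roots, and the same protoplast library was highest in each.

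The response to 60N differed between protoplasts and roots in 8 of 33 tested members by the interaction test, near the share of all genes (24.4%). The response in protoplasts minus that in roots was -1.11 for IAA2, -1.07 for IAA30, 0.75 for AFB3, 0.73 for IAA12, 0.62 for IAA19, 0.54 for IAA11, 0.48 for AFB5 and 0.43 for AFB2 on the log2 scale.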

How the results depend on the processing

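Over 18 counts of called members, 203 of 248 alternatives stayed within 1.5 times of the count reported and 45 did not. Of 2051 alternative values of the 167 log2 fold changes of called members, 232 lost the call and 0 changed direction, the minimum log2 change aside. A minimum log2 change of 1 in either direction left 5 members for TGA4 against EV at 0N, 0 at 5N and 5 at 60N, and in the CHX experiment 3 without CHX and 0 with it. It left 1 for 60N and 2 for 5N against 0N in EV cells, 0 for 60N against 0N in TGA4 cells, 8 for CHX in EV cells, 3 for 60N in roots, 0 for 60N in protoplasts and 2 for the tissue by N interaction. Fits of only the groups compared called 0 members for 60N and 0 for 5N against 0N in EV cells, and 6 for 60N against 0N in TGA4 cells. DESeq2 called 5 for 60N against 0N in TGA4 cells and 5 in protoplasts. With no filter on low counts, these were 4 and 1, and the tissue by N interaction called 5. Scaling by RLE or DESeq2 moved the median of all genes by under 0.1 on the log2 scale in every comparison.

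Leaving out each library in turn gave 5 to 12 members for TGA4 against EV at 0N, 4 to 6 at 5N and 6 to 10 at 60N, and in the CHX experiment 4 to 7 without CHX and 1 to 5 with it. It gave 0 to 3 for 60N and 0 to 5 for 5N against 0N in EV cells, 0 to 2 for 60N against 0N in TGA4 cells, 14 to 18 for CHX in EV cells, 12 to 15 for CHX in TGA4 cells, 9 to 12 for 60N in roots, 0 to 3 for 60N in protoplasts, 30 to 31 between tissues at either dose and 5 to 8 for the tissue by N interaction. The vector calls of IAA2, IAA11 and IAA19 at each of the 3 doses, of AFB2 at 5N, and of IAA2 without and with CHX held under every alternative other than the minimum log2 change of 1. Under that one, IAA2 and IAA11 kept the call at 0N and IAA11 and IAA19 at 60N, and the others were lost.

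The counts reported above come from fits without a block. With the replicate number as a block, 60N against 0N called 3 members in EV cells, 2 in TGA4 cells and 0 in protoplasts, and other counts stayed within 1.5 times. The cause of these shifts was not tested. Depth limits the CHX experiment most, where 3 counts were worth up to 1.21 CPM and IAA3, IAA15, IAA30 and IAA32 lay near that level.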
